A study of Arabidopsis thaliana with 34 samples.

Results

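Late-fall transcripts are those that had fallen little or not at all by 8 h at -3 °C in leaves of Arabidopsis thaliana. After 3 d they stood far below their cold acclimated level. They were selected on measured values. For each probe set the change against cold acclimated leaves was taken within each of 3 accessions, and the 3 changes were averaged with equal weight. A probe set was kept where the averaged 3 d change was -1.3 or lower on the log2 scale and the averaged 8 h change was above -0.5. Of 22746 probe sets on the array, control probe sets not counted, 226 had a 3 d change of -1.3 or lower, and 106 of these had also reached -0.5 or lower at 8 h. The other 120 met both thresholds. Of those, 5 were left out by name: DFR, UF3GT and AT4G14090 (UGT75C1) of anthocyanin synthesis, the Calvin cycle enzyme PRK and the transcription factor WRKY53. The remaining 115 probe sets are the members. In the platform annotation 54 of them pair with 1 gene, 1 pairs with several genes, and 60 are unnamed here.

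The study measured RNA on 34 Affymetrix ATH1 arrays in 12 groups. The sub-zero groups were leaves of the accessions Te, Rsch and Col from a bath at -3 °C, sampled at 8 h, at 1 d and at 3 d. Each group has 3 arrays, and only the Col groups of 8 h and 3 d have 2. The cold acclimated groups, 3 arrays per accession, were leaves of plants kept for 14 days at 4 °C in the light after 42 days of growth in 16-h days. Each array held RNA of 3 leaves taken from 3 plants, and the replicates were independent experiments according to the labels. No group carries a transgene, and every group had been through cold acclimation. The leaves at -3 °C were detached, stood in tubes with 200 µl of water in darkness and stayed unfrozen, so temperature, detachment and darkness changed together and cannot be told apart. The array's probes follow the Col genome, and a sequence difference under a probe can lower the signal in Te or Rsch.

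Cold acclimation is the gain in freezing tolerance that plants make at low temperatures above freezing, and exposure to mild sub-zero temperatures without ice can raise that tolerance further. A leaf moved to the dark stops assimilating carbon, so photorespiration, the salvage of the product of oxygenation by Rubisco, has no new substrate. Transcripts differ widely in lifetime, and an RNA that is no longer made disappears at a rate set by its own stability. In leaf samples of this kind, fewer cells of a type and less RNA per cell cannot be told apart.

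Values are log2 intensities, and a difference of 1 is a factor of 2. On each array the members were summarised by the median of their differences from the cold acclimated mean of the same accession. This median lay between -0.14 and 0.40 on the 9 cold acclimated arrays and between -0.45 and -0.05 on the 8 arrays at 8 h. At 1 d it lay between -1.02 and -0.58 on 8 of 9 arrays, and at 3 d between -1.81 and -1.15 on 7 of 8.

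The other two arrays went against their labels. The array labelled Te 1 d replicate 1 had a member median of -1.27, within the range of the 3 d arrays, and the array labelled Te 3 d replicate 1 had -0.71, within that of the 1 d arrays. Over 1624 changed probe sets that are not members, the array labelled Te 1 d replicate 1 correlated with the other Te arrays at 3 d (r = 0.64) and not with those at 1 d (r = -0.19). The array labelled Te 3 d replicate 1 correlated with the Te arrays at 1 d (r = 0.67) more than with those at 3 d (r = 0.36). These correlations are across probe sets, which are not independent replicates. The arrays kept their labelled groups. Where leaving them out moved a printed value by over 1.5 times or changed an order or a call, the value without them or the direction of the move is given too. Among the remaining 32 arrays, those labelled Te 1 d replicate 2 and Rsch 8 h replicate 3 were also most like another condition, 3 d and 1 d in that order. For Te 1 d replicate 2 the margin was small (r = 0.33 against 0.28), and the Te arrays it was compared with included the 2 that went against their labels. Its member median of -0.87 lay within the range of the 1 d arrays.

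**Figure D1:**
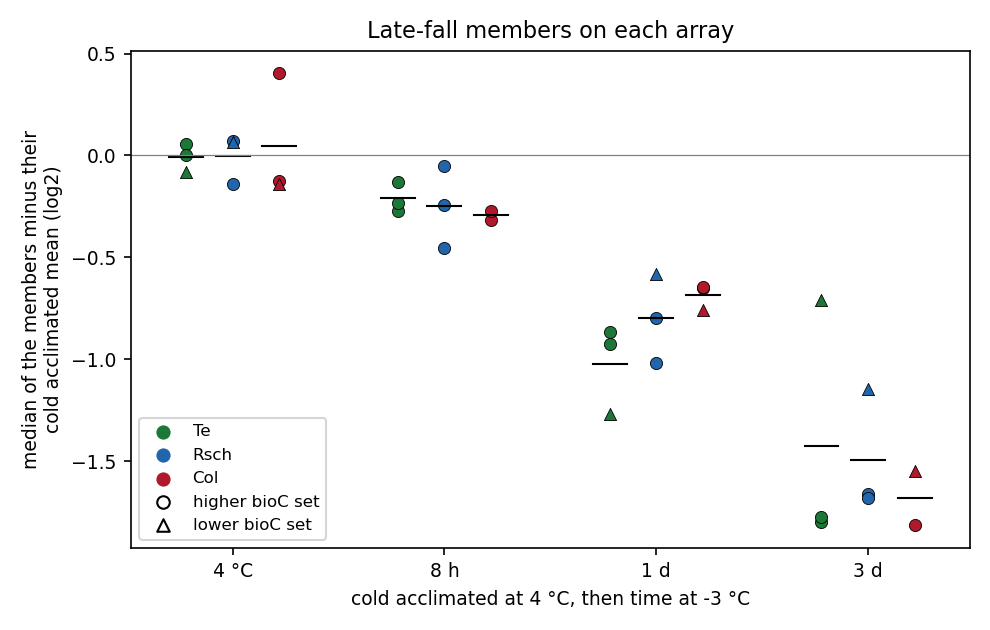
Each point is 1 array: the median over the 115 members of the log2 intensity minus the cold acclimated mean of the same accession (vertical axis), for cold acclimated leaves (4 °C) and after 8 h, 1 d and 3 d at -3 °C (horizontal axis). Colours are accessions, short bars are group means, and triangles mark the 9 arrays with the lower bioC control signal. The medians were near 0 at 4 °C and -0.45 to -0.05 at 8 h, and the 2 Te triangles at 1 d (-1.27) and 3 d (-0.71) stand apart from the other Te arrays.

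The arrays also fell into 2 sets by the bioC spike-in control, with a mean of 8.34 on 25 arrays and 7.05 on the other 9, which were the first replicates, in each accession, at every stage but 8 h. All 8 h arrays belong to the set of 25, and within it the 8 h change was above -0.5 for 100 of the 115 members. Within the set of 25 the member median of the 3 d change was -1.77, all 115 members were below 0 and 106 were at or below -1.3. Within the set of 9 it was -1.10, 114 members were below 0 and 38 were at or below -1.3. The set of 9 holds both arrays that went against their labels, which are its Te arrays at 1 d and 3 d. With Rsch and Col alone the median was -1.23 in the set of 9, with 115 members below 0 and 53 at or below -1.3, and -1.75 in the set of 25. The difference between the 3' and 5' actin probe sets, which grows as RNA is degraded, averaged 1.86 ± 0.49 at 3 d (SD, n = 8 arrays) and 1.74 ± 0.30 in cold acclimated leaves (n = 9). It averaged 1.48 in the set of 25 and 2.21 in the set of 9. The part of the set or of RNA quality in the size of the fall was not tested.

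The averaged 3 d change of the members had a median of -1.48 and ran from -2.83 to -1.3, against a median of 0.03 over all probe sets. The averaged 8 h change had a median of -0.31 and ran from -0.50 to 2.32. Both ranges are bounded by the selection. Limma's moderated test, with Benjamini-Hochberg adjustment over 22746 probe sets and a threshold of 0.05, called 114 members lower at 3 d, against 21.0% of all probe sets. It called 0 members lower at 8 h, against 2.59% of all. These counts follow from the rule and are given as a description.

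**Figure D2:**
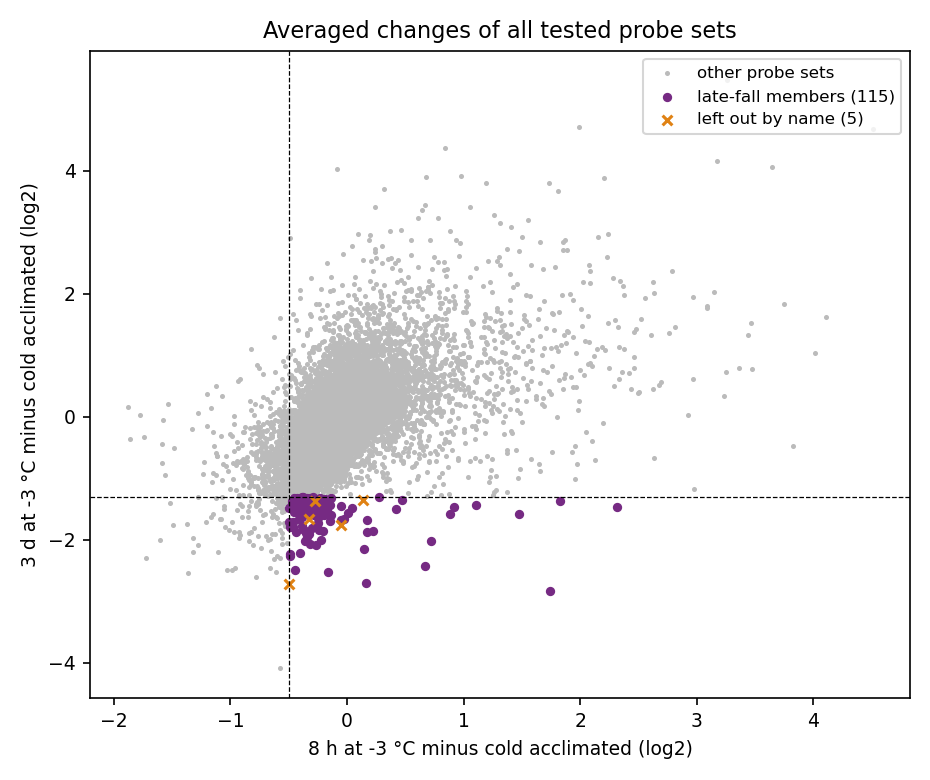
Averaged log2 change at 8 h (horizontal axis) and at 3 d (vertical axis), each against cold acclimated leaves, for all 22746 probe sets. Dashed lines are the thresholds of -0.5 and -1.3, purple points are the 115 members, and crosses are the 5 probe sets left out by name. Of the members 96 lie between the 8 h threshold and 0, and 5 lie at 8 h changes of 1 or more.

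The thresholds cut through a continuous spread. Of the members, 27 lay within 0.1 of the 8 h threshold and 37 within 0.1 of the 3 d threshold. Just inside the 3 d threshold were AT5G39850, a ribosomal protein of the S4 family, at -1.32, AT3G19000 and HPR at -1.31, and AT5G19240 and AT1G69730, both at -1.31. Just outside it was the peroxidase gene PRXR1 at -1.3, followed by AT3G26450, AT1G78995, AT3G04210 and AT2G44210. Just inside the 8 h threshold were AT1G17430, AT1G24140, AT2G36430, AT4G27300 and AT2G04690, the last at -0.50. Just outside it were AT1G44000, also at -0.50, AT5G05800, the photosystem II assembly factor PSB27, CYP71B28 and AT4G37550.

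In cold acclimated leaves the members had a median level of 8.30, against 6.19 over all probe sets, and ran from 5.80 to 12.36. At 3 d their levels had a median of 6.77 and ran from 4.47 to 10.87. No member was dim in cold acclimated leaves, but 12 had a 3 d mean below 5.32, the 40th percentile of all array values and so in the dim part of the array's range, where differences read smaller. For 32 members all 8 arrays at 3 d lay below all 9 cold acclimated arrays, and for 53 they did so without the array labelled Te 3 d replicate 1. The background for this is 2.07% of all probe sets with the array and 2.91% without it, and again the rule used these arrays.

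The largest averaged falls among named genes were those of AT4G27654, AT5G52760, AT4G23610 and AT1G72240. AT4G27654 is a small gene with no role given here. Its level had a median of 7.34 in cold acclimated leaves (5.59 to 10.19), 9.75 at 8 h (8.93 to 10.45), 7.49 at 1 d (4.33 to 7.94) and 4.95 at 3 d (4.07 to 7.60). It was high on every 8 h array and low on all 3 d arrays but the one labelled Te 3 d replicate 1, and the cold acclimated arrays spanned nearly the whole range. Its averaged 3 d change was -2.83 ± 0.58 (SE), a factor of 7.09. AT5G52760 encodes a protein with a heavy-metal-associated domain. Its median was 6.15 at 3 d (5.13 to 7.91) and 9.67 in cold acclimated leaves (6.75 to 10.59), a change of -2.70 ± 0.49, and the groups overlapped through 2 of the cold acclimated Rsch arrays.

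AT4G23610, of the hydroxyproline-rich late embryogenesis abundant family, had a median of 6.50 at 3 d (5.0 to 7.15) and 8.37 in cold acclimated leaves (7.26 to 9.91). The groups did not overlap, and the change was -2.52 ± 0.38. AT1G72240 showed little spread once it had fallen: its median was 4.82 at 3 d (4.68 to 5.19), below the dim limit of 5.32, and 7.58 in cold acclimated leaves (5.97 to 8.44). It was at 5.08 already at 1 d (4.98 to 5.46), so that 87.2% of its 3 d change of -2.50 ± 0.21 was present by then. Further large falls were those of AT1G17430 of the alpha/beta hydrolase family, at -2.26 ± 0.26, the ankyrin repeat gene AT2G24600, at -2.02 ± 0.41, and AT2G29340, at -1.91 ± 0.26, besides AT1G24140, AT5G59670 and UGT71B1, which are described with their groups. In all, 14 members were at least 4-fold lower at 3 d.

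**Figure D3:**
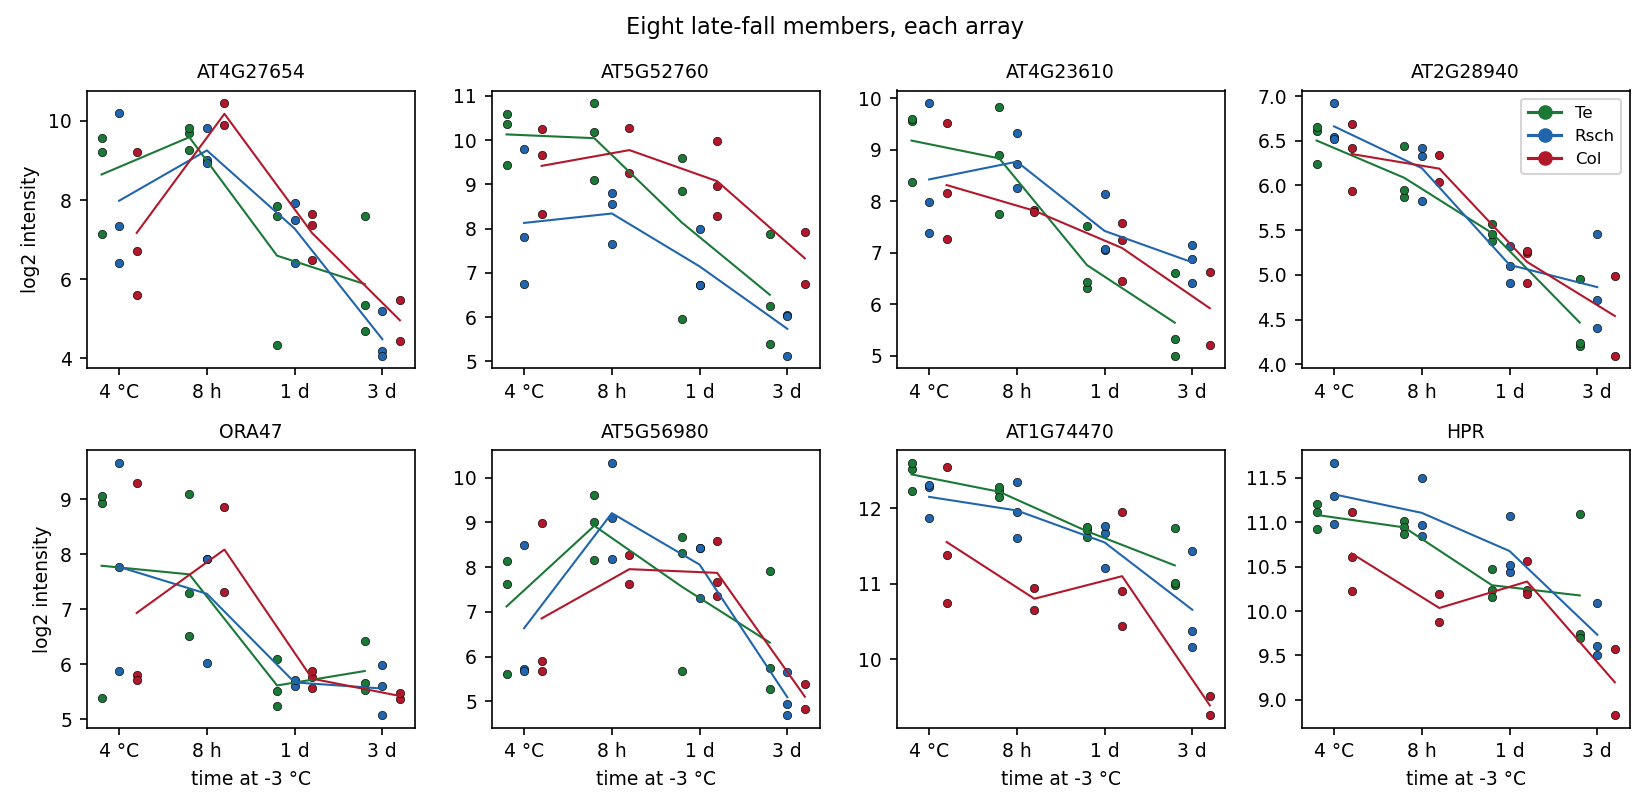
Log2 intensity (vertical axes) of 8 members on every array, for cold acclimated leaves (4 °C) and after 8 h, 1 d and 3 d at -3 °C (horizontal axes), with Te, Rsch and Col in colours and lines through the group means. AT4G27654 and AT5G56980 were high at 8 h and low at 3 d, AT2G28940 and ORA47 were low by 1 d, and AT1G74470 and HPR fell mostly after 1 d.

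The 1 d arrays were not used by the rule, although the 1 d change shares its cold acclimated arrays with the 8 h and 3 d changes. Of the 115 members 113 were below their cold acclimated level at 1 d, with a median change of -0.83 against 0.00 over all probe sets, and limma called 80 of them lower, against 15.5% of all. The median 1 d change was 54.4% of the 3 d change, with quartiles of 42.4% and 66.9%. It was at least 50% for 68 members, at least 75% for 13, and under 25% for 7. Without the 2 arrays that went against their labels the median share was 46.9%, and 50 members had at least 50%. The number of members under 25% was larger without these arrays, so the count of 7 rests on them. AT4G27654 and AT2G24600 were among those that moved below 25%, and an unnamed probe set moved above it.

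Between 1 d and 3 d 114 members went lower, by a median of -0.71 against 0.01 over all probe sets. Limma called 39 of them lower at 3 d than at 1 d, against 2.18% of all, and 69 without the 2 Te arrays. This contrast uses the 3 d arrays of the rule. The exception is an unnamed probe set whose 1 d change was 107% of its 3 d change.

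A group of 6 genes that work in or with the chloroplast was formed by role after their values were seen, as were the groups that follow. The groups need not hold every member of their role, and 60 members are unnamed. AT1G74470 encodes geranylgeranyl reductase, which makes the phytyl chain of chlorophyll and tocopherol, and it was the brightest named member. Its median was 12.28 in cold acclimated leaves (10.74 to 12.60), 12.05 at 8 h (10.66 to 12.35), 11.67 at 1 d (10.44 to 11.95) and 10.67 at 3 d (9.26 to 11.74). The 3 d and cold acclimated arrays overlapped, and the Col means were the lowest at each stage. Its change was -0.60 ± 0.21 at 1 d and -1.62 ± 0.22 at 3 d. The thylakoid calcium sensor CaS had a median of 7.01 at 3 d (6.30 to 8.18) and 8.55 in cold acclimated leaves (8.15 to 9.32), overlapping only through the array labelled Te 3 d replicate 1.

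AT5G19940, of the plastid-lipid-associated family, had a 3 d change of -1.84 ± 0.26. AOR, a chloroplast reductase that removes reactive carbonyls, had -1.86 ± 0.24, with -1.86 in Te, -1.83 in Rsch and -1.90 in Col, and -2.32 in Te without the array labelled Te 3 d replicate 1. Both of the other two genes belong to photorespiration. HPR, the peroxisomal hydroxypyruvate reductase, had a median of 11.11 in cold acclimated leaves (10.23 to 11.67), 10.91 at 8 h (9.88 to 11.50), 10.44 at 1 d (10.16 to 11.07) and 9.65 at 3 d (8.83 to 11.09). Its 3 d arrays lay below all cold acclimated arrays once the array labelled Te 3 d replicate 1 was left out. AT1G11860, the T-protein of mitochondrial glycine decarboxylase, changed by -1.36 ± 0.23. The 6 genes grouped here were alike in timing, with 37.2% to 44.4% of the 3 d change present at 1 d. Limma called 5 of the 6 lower at 3 d than at 1 d, or 6 without the 2 Te arrays. Over all 115 members that count was 39, or 69 without those arrays, against 2.18% of all probe sets.

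Among enzymes of secondary metabolism, UGT71B1, a glycosyltransferase, had a median of 5.90 at 3 d (5.45 to 7.39) and 8.11 in cold acclimated leaves (7.23 to 9.11), a change of -2.07 ± 0.26. CYP71B23, a cytochrome P450, changed by -1.65 ± 0.20, and CHIL, a chalcone-isomerase-like protein that aids flavonoid synthesis, by -1.36 ± 0.29. AT1G06000, which attaches rhamnose to flavonols, was among the latest to fall. Its median was 7.14 in cold acclimated leaves (5.47 to 7.97), 7.17 at 8 h (6.67 to 8.10), 6.90 at 1 d (4.88 to 8.04) and 5.33 at 3 d (4.63 to 7.22). The share of its 3 d change of -1.68 ± 0.37 present at 1 d was 14.9%, and -0.65% without the 2 Te arrays. AT3G19000, of the 2-oxoglutarate-dependent oxygenases, was the opposite, with 80.3% of a 3 d change of -1.31 ± 0.15 present at 1 d and no overlap between 3 d and cold acclimated arrays. Limma called 3 of the 5 lower at 3 d than at 1 d, or 4 without the 2 Te arrays. The same counts over the 115 members were 39 and 69, against 2.18% of all probe sets.

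Another 7 members are kinases or signalling proteins. AT2G28940, a protein kinase, had one of the tightest falls: its median was 6.54 in cold acclimated leaves (5.94 to 6.92), 6.18 at 8 h (5.83 to 6.44), 5.27 at 1 d (4.91 to 5.57) and 4.56 at 3 d (4.1 to 5.46). The 3 d and cold acclimated arrays did not overlap, nor did the 1 d and cold acclimated arrays, and the 3 d change was -1.88 ± 0.16. AT5G59670, a leucine-rich-repeat receptor kinase, changed by -2.22 ± 0.31, AT4G27300, an S-locus lectin receptor kinase, by -1.71 ± 0.20, and AT1G69730, of the wall-associated kinase family, by -1.31 ± 0.16. RING1, an E3 ubiquitin ligase linked to cell death, was bright, with a median of 9.67 at 3 d (8.51 to 10.32) and 11.22 in cold acclimated leaves (9.98 to 11.79), and its groups overlapped. The peptide gene AT3G10930 and the calmodulin-binding gene AT2G26190 stood above their cold acclimated level at 8 h, at 0.42 ± 0.29 and 0.47 ± 0.23, and below it at 3 d, at -1.49 ± 0.29 and -1.35 ± 0.23. In this group 55.3% to 76.1% of the 3 d change was present at 1 d. Limma called 7 of 7 lower at 1 d, where it called 80 of 115 members and 15.5% of all probe sets. It called 1 of 7, AT2G28940, lower at 3 d than at 1 d, against 2.18% of all probe sets. Without the 2 Te arrays it called 3 of 7.

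A group of 5 members acts in transcription or chromatin. ORA47 is a transcription factor induced by jasmonate. It had a median of 7.77 in cold acclimated leaves (5.39 to 9.66), 7.61 at 8 h (6.03 to 9.10), 5.70 at 1 d (5.25 to 6.09) and 5.58 at 3 d (5.08 to 6.43). The cold acclimated and 8 h arrays were widely spread and the 1 d and 3 d arrays uniformly low, with 97.1% of the 3 d change of -1.88 ± 0.56 present at 1 d. The cold acclimated arrays read 5.81, 5.71 and 9.29 in Col, 7.77, 5.88 and 9.66 in Rsch, and 5.39, 8.94 and 9.06 in Te. The lowest of these were already near the 1 d and 3 d levels, so the averaged fall of ORA47 rests on the others. AT1G19000, a MYB-like factor, had 83.6% of its change of -1.48 ± 0.17 by 1 d, and its 3 d and cold acclimated arrays did not overlap. The AP2/ERF gene AT4G16750 changed by -1.46 ± 0.31, the bHLH gene AT5G09460 by -1.52 ± 0.14, and HIS1-3, a linker histone induced by drought, by -1.80 ± 0.39. In this group 66.3% to 97.1% of the 3 d change was present at 1 d. Limma called 5 of 5 lower at 1 d, against 15.5% of all probe sets, and 1 of 5 lower at 3 d than at 1 d, against 2.18%.

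The last group has 5 members, which are proteases or wall enzymes. The subtilase AT2G05920 had a median of 6.78 at 3 d (6.39 to 8.47) and 9.09 in cold acclimated leaves (8.48 to 9.38), without overlap, and a change of -1.86 ± 0.24. The second subtilase, AT5G59130, changed by -1.46 ± 0.29, the serine carboxypeptidase-like gene scpl26 by -1.38 ± 0.23, the pectate lyase AT4G24780 by -1.34 ± 0.17 and the matrix metalloproteinase AT1G24140 by -2.23 ± 0.33. The shares present at 1 d ran from 38.5% to 78.8%, with AT1G24140 highest. Of the 5, limma called 3 lower at 3 d than at 1 d, or 4 without the 2 Te arrays. Among the 115 members 39 were called so, or 69 without those arrays, against 2.18% of all probe sets.

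Other named members fall outside these groups. TUB6, a beta-tubulin, had a median of 5.73 at 3 d (4.98 to 7.12) and 7.32 in cold acclimated leaves (6.76 to 8.04), overlapping only through the array labelled Te 3 d replicate 1, and a change of -1.42 ± 0.23. AT3G46540, of the ENTH/VHS family of membrane traffic, had 6.85 at 3 d (5.44 to 7.11) and 7.98 in cold acclimated leaves (7.66 to 8.35), without overlap and with a change of -1.38 ± 0.17. AT5G19240 was one of the 4 brightest named members and fell late: its median was 9.98 in cold acclimated leaves (9.09 to 11.27), 10.02 at 8 h (9.25 to 11.53), 9.58 at 1 d (7.61 to 11.35) and 8.58 at 3 d (7.27 to 10.29). Its groups overlapped at every stage, and 30.5% of its 3 d change was present at 1 d, or 19.4% without the 2 Te arrays. AT1G73600, a phosphoethanolamine methyltransferase of membrane lipid synthesis, was dim, with a median of 4.45 at 3 d (3.97 to 4.86) and 5.64 in cold acclimated leaves (5.26 to 6.85). AT4G37560, of the formamidase family, changed by -1.51 ± 0.18 without overlap. The 60 unnamed members had 3 d changes of -2.42 to -1.3 with a median of -1.47, against a median of -1.50 for the named ones.

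The shares at 1 d of the 6 chloroplast and photorespiration genes lay below those of all kinase, signalling, transcription and chromatin genes grouped here. Without the 2 Te arrays the chloroplast and photorespiration genes had 31.3% to 41.1%, the kinases and signalling genes 47.6% to 73.4%, and the transcription and chromatin genes 63.0% to 89.5%. Within Te the group medians were 50.3%, 61.3% and 84.0% in the same order without the 2 arrays, but 68.1%, 91.3% and 75.6% with them, so that the order of signalling against transcription genes rests on those arrays. They were, within Rsch 40.4%, 67.3% and 90%, and within Col 21.4%, 52.3% and 73.6%. The groups were formed with the values known, and no test was made of the difference between them.

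**Figure D4:**
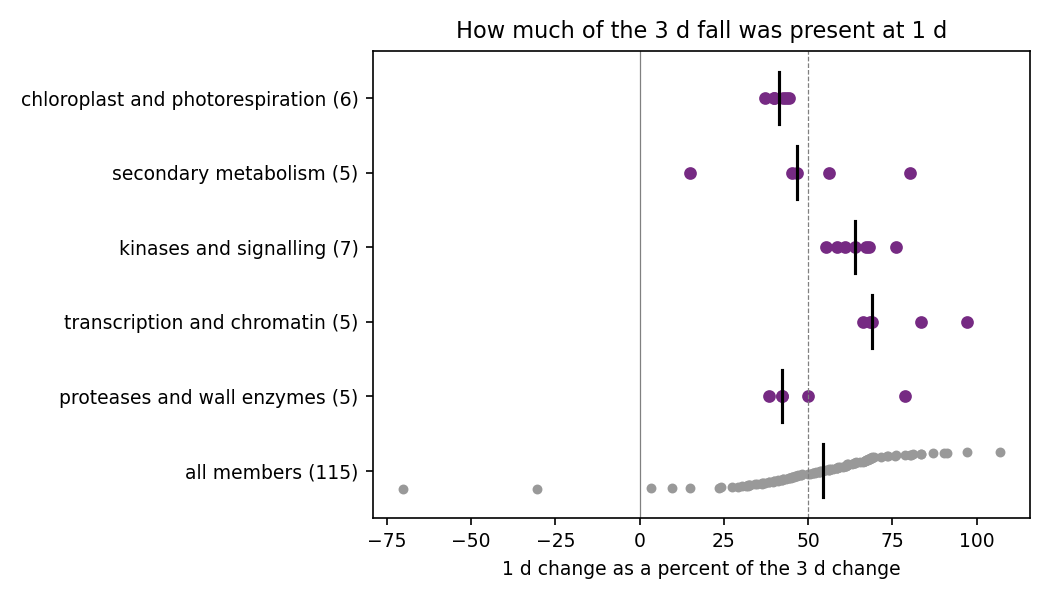
The averaged 1 d change as a percent of the averaged 3 d change (horizontal axis) for members grouped by role and for all 115 members (rows), with the median as a black bar. The 6 chloroplast and photorespiration genes lie at 37.2% to 44.4%, left of the genes of signalling and transcription, which lie at 55.3% to 97.1%.

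Some members were higher at 8 h before they fell. Of the 115, 96 lay between the 8 h threshold and 0 and 19 lay above 0, 11 of them by 0.4 or more and 5 by 1 or more. Limma called 4 of the 115 higher at 8 h, a share close to the 3.36% of all probe sets. The rule leaves only this direction open to a large change. One of the 4 is AT5G56980, which has no role given here, and the other three are unnamed probe sets with 8 h changes of 2.32 ± 0.56, 1.48 ± 0.35 and 1.11 ± 0.30. AT5G56980 had a median of 5.90 in cold acclimated leaves (5.62 to 8.99), 8.64 at 8 h (7.63 to 10.34), 8.31 at 1 d (5.68 to 8.68) and 5.33 at 3 d (4.69 to 7.92). It was high at 8 h and on most 1 d arrays, and its 3 d arrays overlapped the cold acclimated ones. Its cold acclimated arrays read 5.67, 5.90 and 8.99 in Col, 5.72, 5.68 and 8.50 in Rsch, and 5.62, 8.13 and 7.62 in Te. The lowest of these were already near the 3 d levels, so its averaged fall rests on the others. AT5G56980 was the single member not called at 3 d, with a change of -1.37 ± 0.55. Without the 2 Te arrays the change was -1.64, and limma called it. Within the 9 arrays of lower bioC signal its 3 d change was 0.14 on average and -0.94 over Rsch and Col, and the Te array at 3 d there is the one that went against its label. AT4G27654 had an 8 h change of 1.74 ± 0.58 and was not called at 8 h (limma adjusted p = 0.0756).

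All 115 members were below their cold acclimated level at 3 d in all 3 accessions, and 97 were at least 2-fold lower in each, or 106 without the array labelled Te 3 d replicate 1. The median 3 d change was -1.39 in Te, -1.47 in Rsch and -1.66 in Col. Without that array the Te median was -1.76. Limma called 77 members lower in Te, 82 in Rsch and 84 in Col, against 8.01%, 5.39% and 9.86% of all probe sets, and 94 in Te without the array. The rule averaged these same 3 changes, so the counts in each accession, and the place of all members below their cold acclimated level, follow largely from the selection and are a description. At 1 d the medians were -1.01 in Te, -0.74 in Rsch and -0.65 in Col, and -0.87 in Te without the array labelled Te 1 d replicate 1. The deepest 3 d change lay in Te for 27 members, in Rsch for 31 and in Col for 57. Without the 2 Te arrays these counts were 56, 19 and 40, so the order of the accessions rests on those arrays. The 3 d arrays of Col are replicates 1 and 2, but its cold acclimated mean also includes replicate 3. That array had a member median of 0.40, against -0.14 and -0.13 for cold acclimated Col replicates 1 and 2. The part of this imbalance in the Col values was not tested.

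The rule averaged over accessions and did not use their differences. Limma's moderated F test of equal 3 d change in Te, Rsch and Col called 0 of 115 members, against 0.0308% of all probe sets. At an unadjusted p under 0.05 it had 5 members, or 4.35%, against 3.75% of all, and 6 without the 2 Te arrays. For the 1 d change it called 0 members, against 0.0264% of all, and 2 had an unadjusted p under 0.05, or 1.74% against 2.3% of all. The changes in a single accession had a median standard error of 0.39 in Te, and the median range over the 3 accessions was 0.64. The lowest adjusted p of any member was 0.926 at 3 d. Among the 5 were the matrix metalloproteinase AT1G24140, with a 3 d change of -3.38 in Te, -2.14 in Rsch and -1.16 in Col, and AT4G24780, with -0.92, -1.12 and -1.97 in the same order, and neither passed after adjustment.

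The level before sub-zero treatment did differ between accessions for some members. The same F test on the cold acclimated levels called 6 of 115 members, or 5.22%, against 8.36% of all probe sets, a share below the background. AT4G24780 had 5.84, 5.89 and 6.70 on the cold acclimated Te arrays, 6.83, 7.17 and 7.34 on the Rsch arrays and 7.63, 7.89 and 8.10 on the Col arrays. The 3 accessions did not overlap, with Te lowest and Col highest (adjusted p = 0.000373). AT5G09460 averaged 8.47 ± 0.35 in Te, 7.4 ± 0.20 in Rsch and 7.57 ± 0.33 in Col (SD, n = 3 arrays each; limma adjusted p = 0.00413), and Te lay above both others.

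AT5G39850 was likewise highest in Te, at 8.96 ± 0.36, against 7.89 ± 0.29 in Rsch and 7.65 ± 0.49 in Col (limma adjusted p = 0.00574). RING1 was lower in Rsch, at 10.30 ± 0.51, than in Te, at 11.33 ± 0.09, and Col, at 11.36 ± 0.40 (limma adjusted p = 0.0355). AT1G72240 averaged 8.03 ± 0.43 in Te, 6.70 ± 0.83 in Rsch and 7.24 ± 1.02 in Col (limma adjusted p = 0.0383). The sixth is an unnamed probe set (adjusted p = 0.00198). Among 45 alternative settings AT4G24780 was called in all 45, AT5G39850 and the unnamed probe set in 44, AT5G09460 in 43, and RING1 and AT1G72240 in 37. The replicate block gave 10 called members. The count was 15 with array weights, 12 without Col cold acclimated replicate 3, 2 in the larger bioC set and 2 from the cold acclimated arrays alone. Because the probes follow Col, a lower signal in Te or Rsch and a sequence difference under a probe cannot be told apart.

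**Figure D5:**
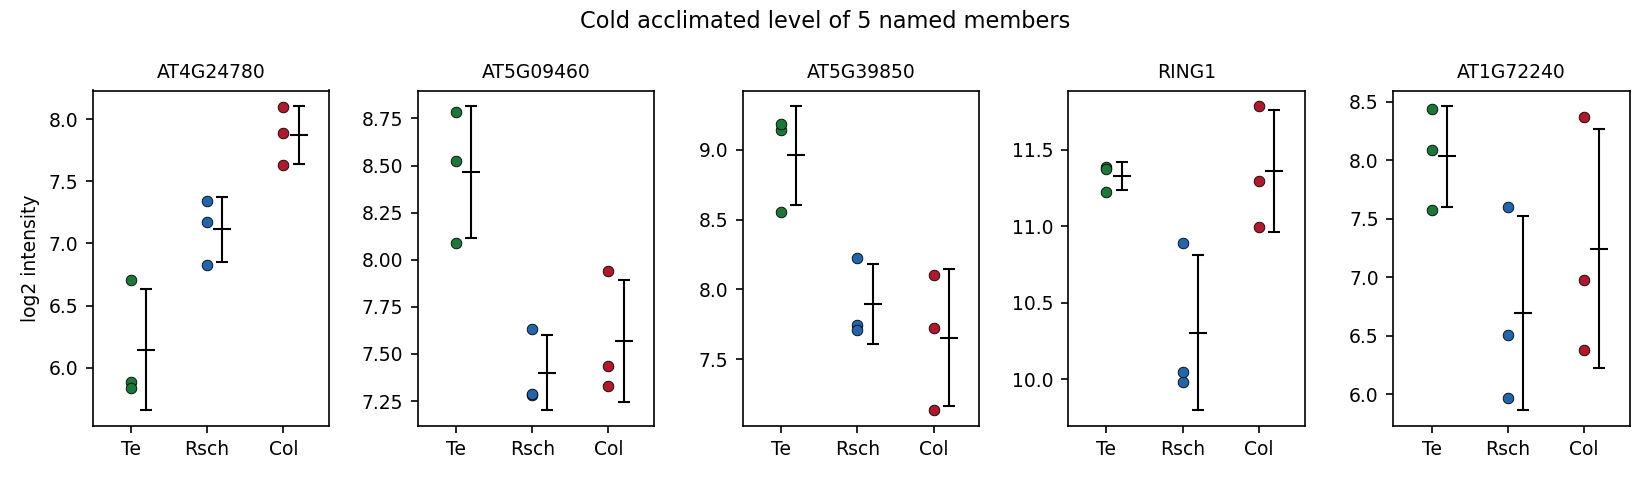
Log2 intensity (vertical axes) of the 5 named members whose cold acclimated level differed between accessions, with 1 point per cold acclimated array of Te, Rsch and Col and the mean ± SD beside the points (n = 3 each). AT4G24780 was lowest in Te and highest in Col, AT5G09460 and AT5G39850 were highest in Te, and RING1 was lowest in Rsch.

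Pathway lists gave the surroundings of the members, and few of their genes have a named probe set here. Of 8 measured genes of the photosynthetic light reactions limma called 8 lower at 3 d, with a median of -0.95, and of 3 Calvin cycle genes 3, with a median of -0.99, against 21.0% of all probe sets. None of these genes is a member. LHCB4.1, an antenna protein of photosystem II, changed by -1.09 ± 0.22, and ATPC1, a subunit of the chloroplast ATP synthase, by -0.80 ± 0.12. PSAN, LHCB4.2 and PSBY are left out by name, but they also missed the thresholds. PSAN and LHCB4.2 were at -0.59 and -0.78 at 8 h, and PSBY was at -0.92 at 3 d. Of 7 chlorophyll synthesis genes 4 were called lower (median -0.51), and of 5 starch genes 5 (median -0.84). Of 6 flavonoid genes 6 were called lower, with a median of -1.56, but 4 of them are names the rule leaves out. Of 5 measured photorespiration genes, a list added after the values were seen, 4 were called lower (median -0.73). HPR and AT1G11860 were the lowest, and the H-protein genes of glycine decarboxylase, AT1G32470, at -0.73 ± 0.27, and AT2G35120, at -0.60 ± 0.13, lay closer to 0. The fifth, the glycerate kinase gene AT1G80380, was at -0.04 ± 0.09 and was not called.

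Of 4 glucosinolate genes 3 were called lower and none is a member. Of 2 jasmonate genes ORA47 was called lower and the defensin gene PDF1.2, at -0.56 ± 0.96, was not. Markers of phloem, epidermis, xylem, mesophyll and root were not analysed here because none of their genes has a named probe set, and the 1 guard cell marker measured was not called at any time. The part of a change in cell types was not tested. In the order of protein-coding genes on the chromosomes, 2 pairs of named members lay within 10 genes of each other. AT1G74440 and AT1G74470 were 4 genes apart, and AT4G23610 and AT4G23670, of the Bet v1 family, were 6 apart.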

How the data were processed

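RNA of 34 leaf samples was measured on ATH1 arrays. The authors deposited log2 intensities from RMA, a method that corrects background, normalizes by quantiles and summarises probes, per the submitters' processing notes, and these values were used as given. Array number limits the precision. Of 22810 probe sets 64 AFFX controls were left out. Group means of the 12 groups were fitted with limma 3.58.1 in R 4.3.3 (lmFit, eBayes, 22 residual degrees of freedom), with Benjamini-Hochberg adjustment over 22746 probe sets and a threshold of 0.05. The fit was also run on simulated arrays with independent noise, which lacked the shared deviation of samples with the same replicate number described below. Moderated F tests compared the accessions. Changes are at a time minus the same accession's cold acclimated level.

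The members, gene lists, role groups and tests were chosen with earlier results of these data known. Named genes were, among members with 1 gene, the 14 lowest at 3 d, the extremes of the share at 1 d (4 each), those with the smallest F test p (6 at 3 d, 4 at 1 d, 6 for the cold acclimated level), the 5 nearest each threshold and the 4 brightest. Other genes were named by role after their values were seen. Gene names come from the platform annotation, updated through the RefSeq table of TAIR10.1, and where a probe set lists no gene it is unnamed here. The third cold acclimated replicates carry a title and a source name that disagree on the number, and the title was followed.

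Samples with the same replicate number deviated together: all 25 pairs within an accession had a correlation above 0.1 (0.16 to 0.60), so the numbers pair the samples. Alternatives were quantile normalization, centring, filters on dim and cross-hybridising probe sets, array weights, replicate and bioC blocks, robust moderation, fits on fewer arrays and leaving out each array. Promoter motifs were not analysed here.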

Additional observations from a re-analysis of the deposited data

How the results depend on the processing

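The rule gave 115 members. With the larger bioC set only it gave 227, of which 91 are members. Under the other settings it gave 85 to 169, with 85 (78 of them members) when each array was centred on its median and 169 (115 of them members) without the 2 Te arrays that went against their labels. Leaving out each array in turn gave 95 to 169. The count of members whose cold acclimated level differed was 6, and it was 15 with array weights, 2 in the larger bioC set, 2 from the cold acclimated arrays alone and 4 to 12 when leaving out each array in turn. With the replicate number as a block, which pairs the samples across conditions, the rule gave 120 probe sets (103 of them members) and 10 members differed in cold acclimated level. The block changed no other count beyond 1.5 times. The cause of these differences was not tested, and some settings also had fewer arrays. The counts of members whose 3 d change or 1 d change differed between accessions were 0 under all 45 alternatives, leaving out each array included. Of 1364 refitted 3 d changes of 31 named genes none changed sign. The rule chose these genes for a low 3 d change on the same arrays, so this follows largely from the selection and is a description. AT5G56980 passed the threshold under 14 alternatives. For the 12 members that were dim at 3 d the array limits the size of the measured fall. The member medians within each bioC set, with and without Te, and the shares by role without the 2 Te arrays were added after seeing the data.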
